A study of Mus musculus with 2 samples.

Results

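Interferon-stimulated genes are described here in mouse embryonic fibroblasts (MEFs) that lack Bmi1, set against wild-type MEFs. Bmi1 is a subunit of Polycomb repressive complex 1 that stimulates ubiquitylation of histone H2A, and the expression arrays accompanied a map of that mark. The tested line was Bmi1 null and the other was wild-type for Bmi1. Both were derived from littermates, were labelled C57BL/6 and male, and were immortalized with TBX2, a T-box repressor delivered from a retroviral construct, so the wild-type cells carried it too by the labels. The Tbx2 probe set was under the floor defined below, at 8.03 in null and 23.2 in wild-type cells. Whether this probe set detects the transcript of the construct is not known here. Both were grown in serum without further treatment. RNA of each line was hybridized to 1 Affymetrix mouse expression array, without replicates. Line, genotype, culture and array therefore cannot be told apart, and no p-value is given for any difference below. In such bulk RNA, fewer cells that express a gene and less of its RNA per cell also cannot be told apart.

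The members were a list of 56 genes of the interferon response, covering the receptors, the signalling proteins, the RNA sensors and the induced effectors. The list was chosen with earlier results of these data known, so the counts below describe it and are no independent support. A member was taken from probe sets annotated to that gene alone, and where several existed the one brightest on average over the 2 arrays (mean of log2 signals) stood for the gene. By this rule 54 of the 56 had a probe set, of 18194 genes on the array. Isg15 was represented only by a probe set shared with a predicted gene, and Ifi44 had no match. The values are MAS5 signals, a linear intensity per probe set that the authors had scaled to a trimmed mean of 500 on each array. Signals under the floor of 100 were set to it, and 49 members were above it on at least 1 array, of 11766 genes in all. Dhx58, Mx2, Cmpk2, Irf8 and Socs1 were below it on both. Where 1 array lay under the floor, the true fold can only be larger than the one computed, and such values carry the words at least. Every log2 ratio divides the null signal by the wild-type signal.

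Interferons are secreted cytokines through which cells announce viral infection. Type I interferons bind a receptor made of Ifnar1 and Ifnar2, whose kinases Jak1 and Tyk2 activate Stat2. It joins Irf9 in a complex that binds the interferon-stimulated response element (ISRE) in the promoters of antiviral genes. Interferon gamma signals through Ifngr1 and Ifngr2 to the gamma-activated site (GAS) in promoters and induces large GTPases that attack vacuoles holding pathogens. Fibroblasts are a classical source of type I interferon and respond to both kinds.

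Across the arrays, 18 probe sets for spiked control transcripts had null over wild-type folds of 0.890 to 1.06. Bmi1 read 2146 in null and 9933 in wild-type cells, but 831 and 931 at its other probe set, whose position relative to the deleted part is not known here. The Y chromosome genes Eif2s3y, Uty and Kdm5d were below the floor in null cells and read 712 to 1683 in wild-type cells, although both lines are labelled male, and Xist was 124 in null and 153 in wild-type cells. The fibroblast marker Vim read 19233 in null and 19519 in wild-type cells, whereas Pdgfra and Thy1 were lower in null cells (532 against 4952, and 50.7 against 375) and Col1a1 and Col3a1 were higher (14841 against 6860, and 20209 against 4617). Of 8 mesothelial and epithelial markers matched, 5 were below the floor in both lines. Upk3b was 9.01-fold higher in null cells (1693 against 188), Epcam 5.59-fold higher (834 against 149) and Msln 2.92-fold lower (1031 against 3006). This Epcam value comes from a probe set whose suffix, _x_at, marks probes matching other transcripts. Epcam read only 11.5 in null and 5.82 in wild-type cells at its second probe set, so its difference is uncertain. The summed signal of the 8, with the brighter Epcam value included, was 3786 in null and 3504 in wild-type cells. By Upk3b and Msln, the lines thus differed in markers of other cell types as well, and the part of this in the interferon results was not tested. Of 13 macrophage and leukocyte markers matched, 9 were below the floor on both arrays. Among these, Ptprc read 36.1 and 12.4, and Itgam 6.53 and 37.8, in null and wild-type cells. Of the 4 measured markers, Cd14 and Adgre1 (118 against 171) had lower signal in null cells. At their brightest probe sets Csf1r was lower (213 against 244) and Laptm5 higher (294 against 217). A second probe set of each went the other way (282 against 174 for Csf1r, and 154 against 166 for Laptm5). The summed signal of the 13 was 1471 in null and 2022 in wild-type cells, most of the difference lying in Cd14 (453 against 1012), and the part of such cells was likewise not tested.

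Most of the listed interferon-stimulated genes had lower signal in Bmi1 null MEFs. Of 49 measured members, 42 had a log2 ratio below 0 (85.7%), against 49.4% of all measured genes. Signal was at least 1.5-fold lower for 26 (53.1%, against 12% of all genes) and at least 2-fold lower for 14 (28.6%, against 5.16%). Pml was the 1 member at least 2-fold higher (2.04%, against 5.73% of all genes). The median log2 ratio was −0.62 for members and 0.0060 for all measured genes, which include the members. The differences were uneven among roles, as the plot of ratios by role shows. At least 2-fold lower were 14 of the 37 measured sensors, effectors and GTPases (37.8%, against 5.16% of all genes). None of the 12 measured receptors, kinases and transcription factors was. The median log2 ratios of these 2 groups were −0.70 and −0.51, and 56.8% and 41.7% were at least 1.5-fold lower. The contrast was thus smaller by these measures than at the 2-fold cut.

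To read single ratios, the spread between probe sets of the same gene was measured over 4591 pairs of probe sets that each exceeded the floor in null and in wild-type cells. Taken from the difference within pairs, the SD of the log2 ratio of a single probe set was 0.29 in all, 0.33 in the dimmest of 3 classes of signal (from 100) and 0.21 in the brightest. This covers probe set error only and no variation between cultures. Of the 49 members, 34 were lower by more than 0.29, 4 were higher by more than 0.29 and 11 lay within it. Of all 11766 measured genes, 2952 were lower by more than 0.29, so passing this spread is common on these arrays.

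**Figure D1:**
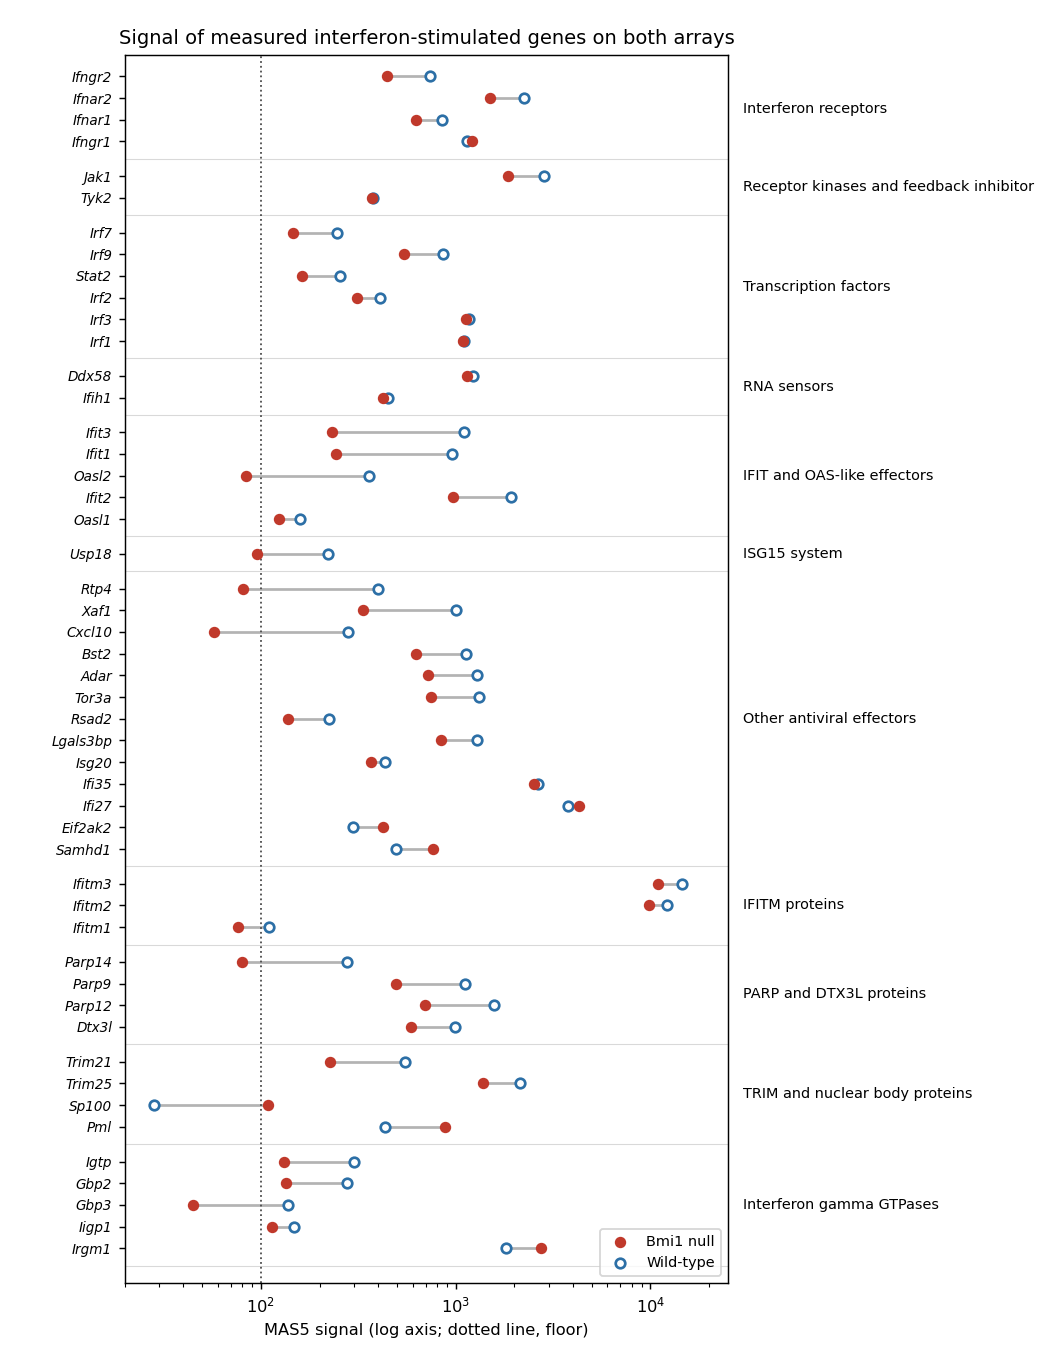
MAS5 signal (log x axis) of the 49 measured members in Bmi1 null (filled red) and wild-type cells (open blue), 1 array each, grouped by role and joined by a grey line; the dotted line is the floor of 100. The red point lies left of the blue one for most effectors, by 4.75-fold for Ifit3, while Pml and Irgm1 lie the other way.

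The IFIT genes encode proteins that bind foreign RNA and block its translation, and 2 of them were among the members with the widest differences. Ifit3 read 233 in null and 1105 in wild-type cells, 4.75-fold lower (log2 ratio −2.25). Ifit1, which recognizes RNA lacking cap methylation, read 244 in null and 955 in wild-type cells, 3.91-fold lower (log2 ratio −1.97). Ifit2 read 964 in null and 1929.6 in wild-type cells and so lay at the 2-fold limit (2.003-fold lower). Each of the 3 was represented by a single probe set, so none has a check from another. Their genes lie in a cluster on chromosome 19, where Ifit2 and Ifit3 are immediate neighbors in the RefSeq gene order. The OAS-like genes encode relatives of the synthetases that activate RNase L. Oasl2 read 84.2 in null and 360.3 in wild-type cells, at least 3.60-fold lower, whereas its immediate neighbor Oasl1 read 124 in null and 158 in wild-type cells, 1.28-fold lower.

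The promoters of Ifit3 and Ifit1 are shown because both genes had the lowest ratios of any member above the floor on both arrays, and because their windows hold the sequence through which type I interferon acts. The sequences come from RefSeq (GRCm38.p6) and run from 250 bases before the annotated start to 50 after it, 5′ to 3′ on the strand of the gene. Ifit3 lies at chr19:34583279-34583578 (plus strand) and Ifit1 at chr19:34640639-34640938 (plus strand). Capitals mark the ISRE core, searched as GAAANNGAAA on both strands (TTTCNNTTTC on the other).
Ifit3: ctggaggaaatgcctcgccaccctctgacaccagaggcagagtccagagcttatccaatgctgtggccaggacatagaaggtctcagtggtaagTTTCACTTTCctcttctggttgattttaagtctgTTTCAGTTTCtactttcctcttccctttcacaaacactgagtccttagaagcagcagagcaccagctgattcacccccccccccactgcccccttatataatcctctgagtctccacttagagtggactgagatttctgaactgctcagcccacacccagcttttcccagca
Ifit1: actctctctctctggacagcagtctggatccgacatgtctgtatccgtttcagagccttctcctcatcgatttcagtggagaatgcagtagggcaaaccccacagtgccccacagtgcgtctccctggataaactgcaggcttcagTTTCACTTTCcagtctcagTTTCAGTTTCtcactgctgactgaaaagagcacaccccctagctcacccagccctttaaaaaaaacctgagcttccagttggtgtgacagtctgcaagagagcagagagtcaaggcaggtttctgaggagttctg
Both windows hold 2 matches on the reverse strand, from −156 and −122 in Ifit3 and from −104 and −85 in Ifit1, with the annotated start counted as 0. In both genes the match farther from the start reads TTTCACTTTC and the nearer one TTTCAGTTTC, as printed.

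The ISG15 system attaches the ubiquitin-like protein ISG15 to other proteins and removes it again. Usp18, the protease that removes it and also restrains the type I receptor, read 95.3 in null and 221 in wild-type cells, at least 2.21-fold lower. The probe set that Isg15 shares with the predicted gene Gm9706 read 270 in null and 619 in wild-type cells, 2.30-fold lower, and is not counted among the members measured. The Isg15 promoter is shown because its response element is the longest run of the core among the members, with 3 overlapping matches (chr4:156200769-156201068, GRCm38.p6, minus strand, marked as above).
Isg15: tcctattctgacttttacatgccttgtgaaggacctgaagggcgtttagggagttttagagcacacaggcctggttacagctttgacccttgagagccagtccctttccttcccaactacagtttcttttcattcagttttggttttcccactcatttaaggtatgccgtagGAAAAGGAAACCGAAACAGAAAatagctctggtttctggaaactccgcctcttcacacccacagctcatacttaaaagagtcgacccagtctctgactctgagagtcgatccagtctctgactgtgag
The 3 matches begin at −78, −72 and −66 from the annotated start.

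Of 13 other antiviral effectors measured, 3 were at least 2-fold lower (23.1%, against 5.16% of all genes). At least 1.5-fold lower were 8 (61.5%, against 12% of all genes), and 1 was at least 1.5-fold higher. Rtp4, a receptor transporter protein, read 80.6 in null and 398 in wild-type cells, at least 3.98-fold lower. Xaf1, a pro-apoptotic antagonist of XIAP, read 334 in null and 1002 in wild-type cells, 2.998-fold lower. Cxcl10, a chemokine that draws T cells, read 57.4 in null and 280.3 in wild-type cells, at least 2.80-fold lower. Null signal was thus below the floor for Rtp4 and Cxcl10 and well above it for Xaf1. The next members formed a step between 1.5-fold and 2-fold. Bst2, the tetherin that holds budding virions, read 624 in null and 1126 in wild-type cells (1.81-fold lower). Adar, which edits adenosine in double-stranded RNA, was 1.79-fold lower (721 against 1289.6), and Tor3a was 1.75-fold lower (749 against 1312). The other measured probe sets of Adar and Tor3a were 1.73-fold to 1.88-fold lower. Lgals3bp, a secreted glycoprotein that binds galectins, was 1.54-fold lower (838 against 1291).

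Other effectors did not share this direction or gave conflicting probe sets. Eif2ak2, the kinase PKR that halts translation on double-stranded RNA, read 425 in null and 298 in wild-type cells, 1.42-fold higher, with 1.25-fold and 1.07-fold at its other probe sets. Ifi27 read 4298 in null and 3777 in wild-type cells, 1.14-fold higher. Samhd1, which depletes deoxynucleotides, read 767 in null and 492 in wild-type cells at its brightest probe set, 1.56-fold higher, and 1.33-fold and 1.65-fold higher at 2 others. A further Samhd1 probe set, with the suffix _x_at that marks probes matching other transcripts, read 288 in null and 499.7 in wild-type cells, 1.73-fold lower. Ifi35 was 1.04-fold lower at its brightest probe set, 1.41-fold lower at another and 1.53-fold higher at the remaining one, so no direction can be given. Rsad2, the antiviral enzyme viperin, read 137 in null and 223 in wild-type cells, 1.62-fold lower. Its other probe sets lay across the floor, with log2 ratios of 0.03 and −0.25. Isg20 was 1.17-fold lower.

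The IFITM proteins sit in endosomal membranes and block virus fusion. Ifitm3 read 10980.5 in null and 14559.9 in wild-type cells, 1.33-fold lower, and Ifitm2 9862 in null and 12163 in wild-type cells, 1.23-fold lower. Ifitm1 read 76.2 in null and 109.6 in wild-type cells, close to the floor. All 3 lie beside each other on chromosome 7 and are close paralogs, so their probe sets may share signal.

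PARP proteins belong to the family that attaches ADP-ribose to other proteins, and Parp9 works in a complex with the ubiquitin ligase Dtx3l. All 4 genes of this group were at least 1.5-fold lower, against 12% of all genes. Parp9 read 492 in null and 1116 in wild-type cells, 2.27-fold lower. Parp12 read 696 in null and 1563 in wild-type cells, 2.24-fold lower. Parp14 read 80.2 in null and 275 in wild-type cells, at least 2.75-fold lower. Dtx3l read 593 in null and 986 in wild-type cells, 1.66-fold lower, and 1.95-fold lower at a second probe set. Parp9, Dtx3l and Parp14 are consecutive on chromosome 16 in the RefSeq gene order, with Dtx3l between the others, whereas Parp12 lies on chromosome 6.

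Both TRIM ubiquitin ligases had lower signal in null cells, whereas Pml of the promyelocytic leukemia (PML) nuclear bodies had higher signal. Trim21, a cytosolic antibody receptor, read 227 in null and 549 in wild-type cells, 2.42-fold lower, and 2.33-fold lower at its other probe set. Trim25, which ubiquitylates the sensor RIG-I, was 1.55-fold lower (1375 against 2128), with 1.72-fold and 1.38-fold at 2 further probe sets. Pml, the scaffold of the nuclear bodies, read 884 in null and 435 in wild-type cells, 2.03-fold higher, and 1.79-fold higher at a second probe set. Sp100, another component of these bodies, read 109 in null and 28.3 in wild-type cells, at least 1.09-fold higher. Both nuclear body genes thus had higher signal in null cells and both TRIM genes lower signal.

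**Figure D2:**
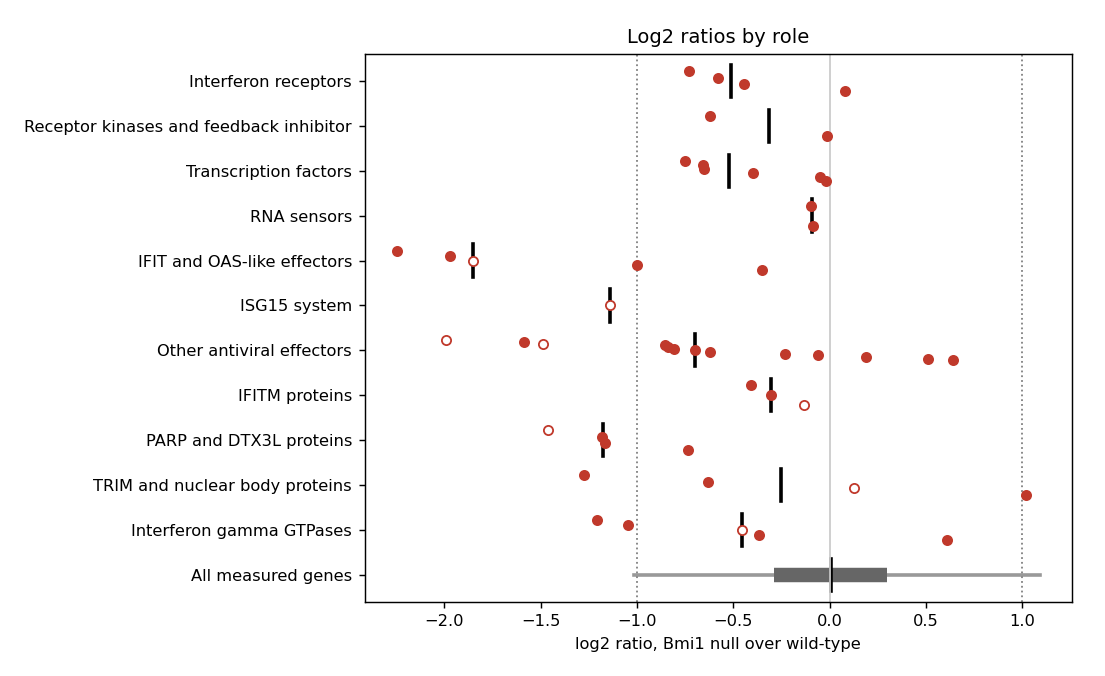
Log2 ratio, Bmi1 null over wild-type (x axis), of each measured member by role; open points are bounds with 1 array below the floor, black bars are medians, and dotted lines mark 2-fold. The bottom row shows all 11766 measured genes as the central 50% (thick) and 90% (thin). The IFIT and OAS-like genes had the lowest median of the roles (−1.85, which is the bound for Oasl2), and receptors, kinases and factors all lie between the dotted lines.

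The sensors upstream of interferon differed little. Ifih1, the sensor MDA5 of long double-stranded RNA, read 423 in null and 449 in wild-type cells, 1.06-fold lower. Ddx58, which encodes RIG-I, read 1146 in null and 1225 in wild-type cells, 1.07-fold lower, and 1.06-fold lower at another probe set. Both ratios are smaller than the spread between probe sets.

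Receptors and transcription factors had small shifts that were mostly downward. Of the 12 measured genes among receptors, kinases and factors, the median log2 ratio was −0.51. Below 0 were 11 (91.7%, against 49.4% of all genes), and 5 were lower by 1.5-fold or more (41.7%, against 12%). For the type I receptor, Ifnar1 read 625 in null and 851 in wild-type cells (1.36-fold lower) and Ifnar2 1493 in null and 2235 in wild-type cells (1.497-fold lower). The other Ifnar2 probe sets were 1.497-fold and 1.74-fold lower. For the gamma receptor, Ifngr1 read 1212 in null and 1148 in wild-type cells (1.06-fold higher). Ifngr2 was 1.66-fold lower (443 against 736), but 1.04-fold lower at a second probe set. Jak1 read 1856 in null and 2855 in wild-type cells, 1.54-fold lower, although its other probe sets ranged from 1.01-fold to 2.33-fold lower. Tyk2 read 374 in null and 377 in wild-type cells. Socs1, which switches these kinases off, did not reach the floor in null (40.4) or wild-type cells (77.3).

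Among the factors, the members of the complex that binds the response element stood together. Irf9 read 545 in null and 859 in wild-type cells, 1.58-fold lower, and Stat2 162 in null and 254 in wild-type cells, 1.57-fold lower, with 1.69-fold at its other probe set. Irf7, the factor that amplifies interferon production, read 146 in null and 246 in wild-type cells, 1.68-fold lower. Irf2, an antagonist of Irf1, was 1.32-fold lower (311 against 409). Irf1 read 1086 in null and 1099.6 in wild-type cells, and Irf3 read 1127 in null and 1165 in wild-type cells. At their brightest probe sets, neither differed by more than the spread between probe sets. Another Irf3 probe set read 327 in null and 257 in wild-type cells, 1.27-fold higher and past that spread, so no direction can be given for Irf3. Irf8, a factor of myeloid and B cells, was below the floor at 42.3 in null and 60.2 in wild-type cells.

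The interferon gamma GTPases were set against the sensors and effectors of type I interferon. Gbp2 read 134 in null and 277 in wild-type cells, 2.06-fold lower, and 1.80-fold lower at its other probe set. Gbp3, separated from Gbp2 by 1 gene on chromosome 3, read 44.9 in null and 137 in wild-type cells, at least 1.37-fold lower. Igtp, which encodes the GTPase Irgm3, read 131 in null and 302 in wild-type cells, 2.31-fold lower. Iigp1 was 1.29-fold lower (114 against 147). Irgm1, a regulator of the other GTPases, went the other way, with 2754 in null and 1803 in wild-type cells (1.53-fold higher).

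The median log2 ratio of the 5 GTPases was at most −0.45, since it is the bound for Gbp3, against −0.72 for the 32 measured sensors and effectors. The computed difference of −0.26 for the sensors and effectors minus the GTPases rests on that bound. At least 2-fold lower were 2 of the 5 GTPases (40%) and 12 of the 32 others (37.5%), against 5.16% of all genes. The order of the medians turned in 5 of 11 alternative settings, for example without a floor (−1.04 for the GTPases and −0.70 for the others), so no difference between the 2 classes was established. The GTPases themselves spanned log2 ratios from −1.21 to 0.61.

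The Igtp and Irgm1 promoters are shown because these 2 related GTPases differ in direction while both windows hold the ISRE core just before the start. They lie at chr11:58199306-58199605 (plus strand) and chr11:48871371-48871670 (minus strand) in GRCm38.p6, marked as above.
Igtp: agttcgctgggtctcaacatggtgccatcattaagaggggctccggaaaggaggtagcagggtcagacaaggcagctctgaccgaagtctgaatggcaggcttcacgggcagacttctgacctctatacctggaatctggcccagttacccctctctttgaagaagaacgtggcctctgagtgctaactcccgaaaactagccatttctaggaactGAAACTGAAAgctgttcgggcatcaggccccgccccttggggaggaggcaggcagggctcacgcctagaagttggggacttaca
Irgm1: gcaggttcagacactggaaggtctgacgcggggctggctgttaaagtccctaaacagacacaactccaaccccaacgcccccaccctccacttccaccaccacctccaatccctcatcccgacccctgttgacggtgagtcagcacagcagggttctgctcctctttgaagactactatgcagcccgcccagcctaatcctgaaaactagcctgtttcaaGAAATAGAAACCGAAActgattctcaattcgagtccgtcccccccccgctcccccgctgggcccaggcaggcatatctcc
Igtp has 1 match from −34, and Irgm1 has 2 overlapping matches from −30 and −24.

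Promoter windows were found for 47 of the 56 members, 8 of them with several windows for alternative starts. The ISRE core was present in at least 1 window of 19 members (40.4%), against 3.99% of all 27025 genes with a window. The GAS core, searched as TTCNNNGAA (the same on both strands), was present in 14 (29.8%), against 9.55% of all genes. The 2 motifs can overlap, as they do in Bst2 and Ifitm3. By ratio, the ISRE core was found in 6 of the 10 members at least 2-fold lower that had a window and in 11 of the 31 that differed less. It was in Ifit3, Ifit1, Cxcl10, Trim21, Igtp and Gbp2, but also in Ddx58, Ifih1, Eif2ak2 and Irgm1, whose ratios ranged from −0.10 to 0.61. The GAS core was found in 2 of the same 10 (Igtp and Ifit2) and in 11 of the 31. A match describes these letters in this window and is no evidence of binding.

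**Figure D3:**
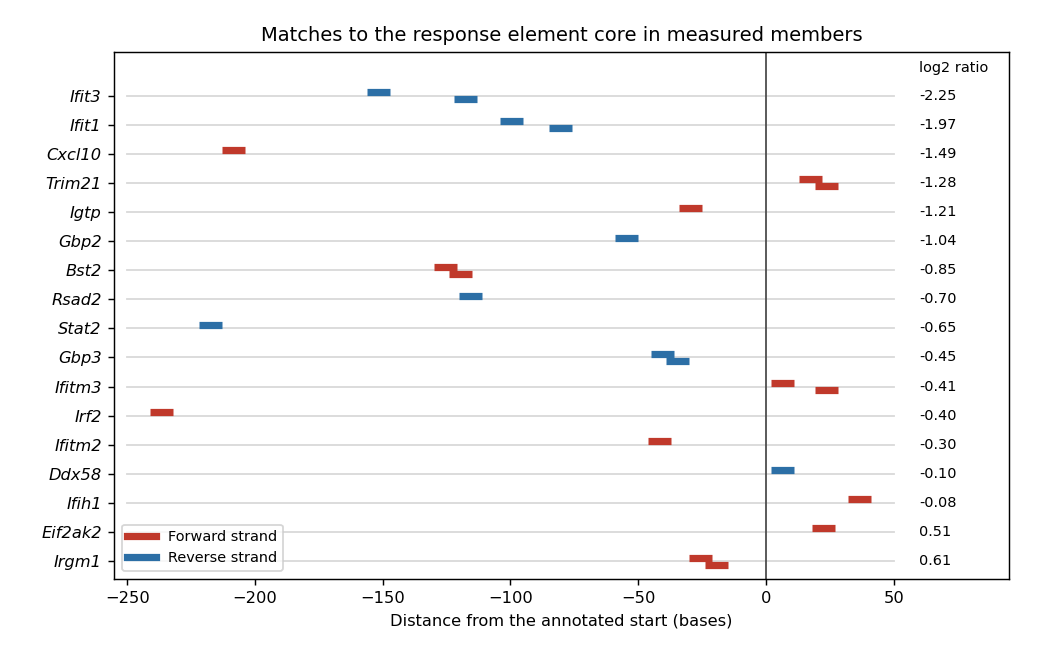
Position of each match to the ISRE core in the promoter windows of 17 measured members, in bases from the annotated start (x axis, start at 0), ordered by log2 ratio from the lowest; red marks the forward and blue the reverse strand. Members with a match span ratios from −2.25 (Ifit3) to 0.61 (Irgm1).

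Agreement between probe sets could be examined for 18 members with several measured ones, and all were of the same sign in 14. The exceptions were Ifi35, Irf3, Rsad2 and Samhd1. Of the 15 members past 2-fold, only Trim21, Gbp2 and Pml had a second measured probe set, and both Trim21 probe sets were past 2-fold. The remaining 12 rest on 1 measured probe set each.

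**Figure D4:**
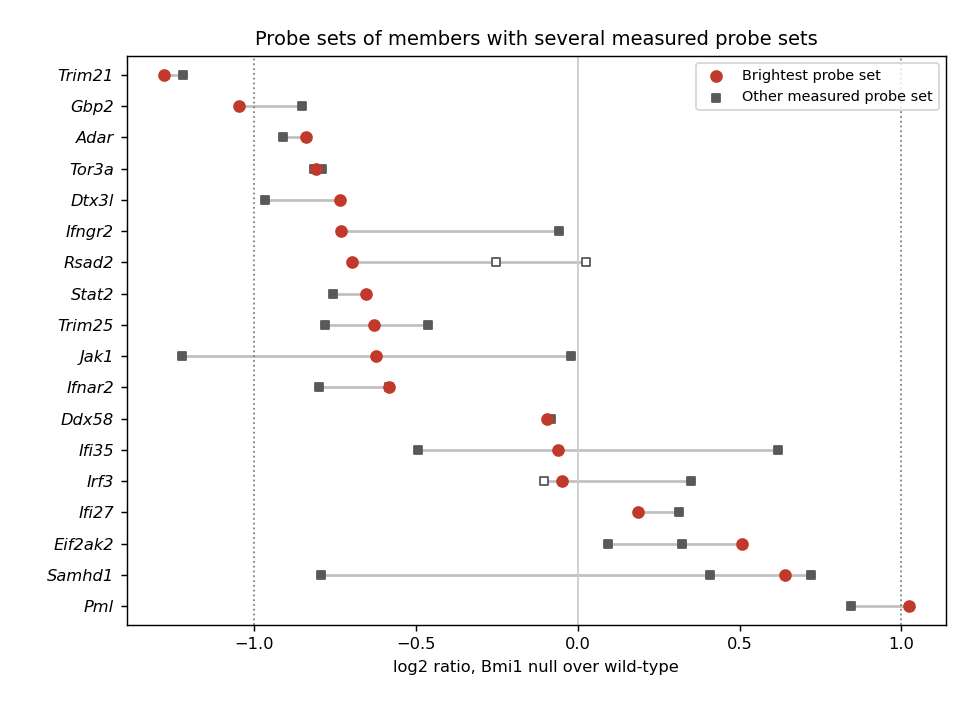
Log2 ratio, Bmi1 null over wild-type (x axis), of every measured probe set of the 18 members with several; red circles are the brightest probe set, grey squares the others, open squares bounds with 1 array below the floor, and dotted lines mark 2-fold. Trim21 probe sets lie together at −1.28 and −1.22, while those of Samhd1 span −0.79 to 0.72.

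Among the 29 members whose brighter signal was at least 500, 7 were at least 2-fold lower (24.1%, against 5.33% of all genes as bright) and 1 was higher (3.45%, against 6.16%). Of these 7, Ifit2 and Parp12 reached 500 in both lines, whereas Ifit1, Ifit3, Xaf1, Parp9 and Trim21 reached it only in wild-type cells, where they were higher, so the count is a description and no support. Of the 14 lower members, 9 were above the floor on both arrays and 5 had null signal below it, namely Oasl2, Usp18, Rtp4, Cxcl10 and Parp14.

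Genes of the same pathway outside the list were examined for comparison. All 7 interferon genes with a probe set of their own were below the floor on both arrays, among them Ifnb1 (98 in null and 77.3 in wild-type cells), the fibroblast interferon. Of 12 other interferon-stimulated genes measured, 3 (25%, against 5.16% of all genes) were lower by 2-fold or more and 1 (8.33%, against 5.73%) was higher. Their median log2 ratio of −0.050 lay between Trim30a and Oas2, whose null signals (58.4 and 73.9) were under the floor, so it is an upper bound. Slfn2, a regulator of lymphocyte quiescence, was 3.61-fold lower (189 against 681) and Phf11d 2.16-fold lower (237 against 511). Oas1a, named after its value was seen, read 41.0 in null and 394.8 in wild-type cells, at least 3.95-fold lower. Ifi30, a lysosomal thiol reductase, was 2.42-fold higher (1746 against 723). Of 4 further gamma GTPases, all had ratios below 0 and 2 (50%, against 5.16% of all genes) were at least 2-fold lower. These were Gbp6 and Gbp7 (at least 2.05-fold and at least 2.43-fold, named after their values were seen). Of 9 measured genes of nucleic acid sensing, 1 (11.1%, against 5.16% of all genes) was at least 2-fold lower and none was 2-fold higher. The lower gene was Ikbke, a kinase that activates Irf3 (2.33-fold, 249 against 581). Of 12 other STAT and SOCS pathway genes, 2 (16.7%, against 5.73% of all genes) were at least 2-fold higher. Socs2 was 3.52-fold higher (1959 against 556), and 2.85-fold at a second probe set. Ptpn6 was 2.26-fold higher (296 against 131, named after its value was seen).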

How the data were processed

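Total RNA of 1 Bmi1 null and 1 wild-type MEF line was hybridized to 1 array each. The deposited values are MAS5 signals, a linear intensity per probe set that the authors scaled to a trimmed mean of 500 (checked on both arrays, 2% trimmed at each end). No depth exists for arrays, and the number of arrays limits the precision. Of 45101 probe sets, 34958 carried 1 gene symbol in the platform annotation, 932 several and 9211 none, and only the first kind was used. Of the Entrez identifiers, 34754 were found in the RefSeq table for GRCm38. Signals under 0.2 times the trimmed mean (100) were set to it, genes below it on both arrays got no ratio, and the log2 ratio was computed from the deposited intensity, null over wild-type. Thresholds were 2-fold and 1.5-fold. The members and lists were chosen with earlier results of these data known. All members are named, and of other genes those past 2-fold whose brighter array reached the trimmed mean. Cell type markers, Tbx2, Xist, the Y chromosome genes, Ifnb1, Trim30a and Oas2 were named whether or not they met this rule. Further exceptions are marked in the text. Without replicates no test was run. The ratio step was tested on simulated data. Alternatives changed the floor, the pseudocount, the probe set rule, the probe set suffixes and the scaling. Scripts ran in Python 3.11.15 with numpy 2.4.6, pandas 2.3.3, scipy 1.17.1 and matplotlib 3.10.9.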

Additional observations from a re-analysis of the deposited data

How the results depend on the processing

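The count of 14 members at least 2-fold lower in Bmi1 null cells was 13 to 16 with a floor of 0.1 times the trimmed mean or none, with the mean or the dimmest measured probe set, without the suffixes _s_at, _x_at and _a_at, and after equal medians or quantile normalization. The number of measured members differed among these settings, from 37 without the suffixes to 54 without a floor. The shares were 26.5% to 35.1% of members, against 4.81% to 8.68% of all genes. The highest share was without the suffixes (13 of 37, against 5.34% of all genes). The count was 7 with a floor of 0.4 times the trimmed mean (15.9% of members, against 4.52% of all genes) and 9 with a pseudocount instead of a floor (16.7%, against 2.58%). Without a floor it was 16 (29.6%, against 8.68%). Restrictions chosen after seeing the data gave 7 (brighter signal of at least 500, 24.1% of 29 members, against 5.33%) and 9 (above the floor on both arrays, 22.0% of 41 members, against 4.19%). Ifit1, Ifit3, Xaf1, Parp9 and Parp12 were past 2-fold in all 11 alternatives. Each of these rests on 1 measured probe set with signals above every floor tried on both arrays. Only the pseudocount and the scaling could therefore change their ratios, and the other alternatives are no check on them. Ifit2 and Gbp2 fell under 2-fold in 3 and 4. The count of higher members, 1, was 2 with the lower floor (3.85%, against 6.43% of all genes) or none (3.70%, against 12.9%), with Sp100 added. It was 0 with the pseudocount (against 3.07% of all genes), the mean (against 5.15%) or the dimmest probe set (against 4.94%). The members' median of −0.62 was −0.47 with the higher floor, −0.44 with the pseudocount and −0.49 with the dimmest probe set, and below 0 throughout. The median of the type I sensors and effectors was −0.57 with the pseudocount.

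The GTPase median of −0.45 was −1.04 with the lower floor, without a floor and without the suffixes, −0.69 with the pseudocount, and −0.71 above the floor on both arrays. It was 0.61 for the 1 bright gene, Irgm1. The median of sensors and effectors minus that of the GTPases, −0.26, reversed to 0.35 with the lower floor or none, 0.12 with the pseudocount, 0.24 without the suffixes and 0.075 above the floor on both arrays. It was −0.15 with the higher floor and −1.38 among bright genes. The cause was not tested. No paired analysis was possible because each group has 1 array and no result comes from a test. Signals near the floor limit what can be seen for dim members.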

Other observations

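Probe sets annotated to several genes were left out of the counts, and those of interferon-inducible families went both ways. A probe set shared by 9 interferon alpha genes read 193 in null and 143 in wild-type cells, and a second one 175 in null and 106 in wild-type cells. The probe set of Tgtp1 and Tgtp2, T cell-specific GTPases of the immunity-related family, was 2.23-fold higher in null cells (564 against 253). The probe set of Gvin1 and Gm4070, a very large inducible GTPase and a predicted gene, was 2.38-fold higher (2474 against 1039). A probe set of the Ifi203 family of DNA-binding proteins read 37.7 in null and 314 in wild-type cells, at least 3.14-fold lower. These values were chosen for mention after they were seen.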
